A study of Arabidopsis thaliana with 18 samples.

Results

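Cytochrome P450 genes outside the best-known wound pathways were followed in Arabidopsis thaliana leaves after wounding. Probe sets were taken when the array's annotation gave a symbol starting with CYP and 2 digits or a title naming a cytochrome P450. The 13 loci of jasmonate synthesis and breakdown, glucosinolate synthesis and modification (with CYP81F2 and CYP81F4) and the phenylpropanoid and flavonoid steps were left out. P450 genes to which the array gave no symbol or title of that kind, such as CYP90A1 and CYP71B15, were missed. They are named below as not members, so the members are not all remaining P450 genes. The rule kept 191 of 22810 probe sets. Of these, 188 carried a cytochrome P450 symbol, in 52 subfamilies, and are called members here. The other 3 (CYP38, CYP59 and CYP71) are cyclophilins, protein-folding enzymes that share the CYP prefix. They were set aside from the counts, and none of the 3 was called in any contrast. Of the 188 members, 178 matched 1 gene and 10 had probes shared between genes. The array's symbol for the member AT5G57250 was CYP71B10, but RefSeq's TAIR10.1 annotation gave that locus no P450 name.

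Cytochrome P450 enzymes are membrane-bound haem proteins that insert oxygen into small molecules, using electrons passed on by a reductase or a cytochrome b5. In plants they form a very large enzyme family. Single subfamilies make or break down hormones, build cutin, sterols, carotenoids, lignin and volatile terpenes, or oxidise foreign chemicals. Many members of the large subfamilies have no known substrate.

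RNA was extracted from leaves and hybridised to 18 Affymetrix ATH1 arrays, 3 in each of 6 groups lettered A, B and C. The OE groups came from lines OEEV47-1 and OEEV47-2, which over-express StZFP2, a zinc finger gene of potato, and were sampled unwounded or 1 h or 6 h afterwards. The Col-0 groups were wild type with the same 3 treatments. The sample labels call the OE material a pool of both lines, whereas the design text lists each line on its own. The promoter that drives StZFP2, the age of the plants and the hour of harvest were not given, and no unwounded leaves were labelled 6 h, so wounding and time of day cannot be told apart at 6 h. The array has no probe set for the potato gene, so its level could not be checked. Nothing in the labels ties the replicates to separate plants, so p-values cover only how these samples vary, and that variation may be technical.

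Values are MAS5 signals, which the authors scaled to a common trimmed mean. The array medians lay between 127.5 and 161.1. Leaf mesophyll markers were bright on every array, and root and flower markers were mostly dim. The root markers EXPA7 and PRP3 and the flower markers AP3 and PI lay below the 40th percentile on all 18 arrays, and the flower marker AG on 15. The root marker PYK10 lay below it on only 9, with signals of 158 to 1110 in Col-0 at 6 h, against 17.6 to 159 in unwounded Col-0. The 9 Col-0 arrays were each closest to an array of their own group. Among the 9 labelled OE, 6 had as nearest array 1 with another treatment label. Over all kept probe sets, correlations between OE control A or B and Col-0 at 6 h were 0.964 to 0.971, whereas those with unwounded Col-0 were 0.876 to 0.888. For OE 6 h C the correlations with Col-0 at 6 h were 0.961 to 0.965, and for OE 6 h A and B they were 0.887 to 0.894. OE 6 h A and B and OE 1 h C had correlations of 0.953 to 0.971 with Col-0 at 1 h and of 0.939 to 0.966 with unwounded Col-0. The arrays OE control C, OE 1 h C and OE 6 h C each had their highest correlation with the Col-0 group of their own treatment label. The arrays labelled OE are therefore named by their labels alone. Every comparison that needs their treatment label rests on labels that these correlations partly go against.

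Most members gave too little signal in these leaves to be tested. A probe set was kept for testing when it reached the 40th percentile of its array, a signal of 67.3 to 86.5, on at least 3 of the 18 arrays. This kept 80 of the 188 members (42.6%), against 65.2% of all probe sets. A total of 58 members passed that level on all 18 arrays, and 100 on none. At the edge of the filter, 2 members, CYP72A9 and CYP81D2, passed on exactly 3 arrays, and 8 members missed it with 1 or 2. A member kept only because it was bright in 1 treatment had to differ between treatments, so shares among the 80 describe the kept members and not the family.

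The kept share differed between subfamilies. Of the 30 members of CYP71B, the largest subfamily, 19 were kept. Only 2 of the 23 members of CYP705A were kept, CYP705A19 and CYP705A21. CYP96A kept 3 of 13, CYP72A 6 of 8, CYP81D 6 of 8 and CYP707A all 4. None of the 4 CYP702A and none of the 4 CYP86C probe sets were kept. Some members known from the root or the anther were dim: the suberin gene CYP86A1 had a median signal of 4.90 over the 18 arrays, the pollen wall gene CYP703A2 3.20, and the root triterpene genes CYP708A2 and CYP705A5 2.71 and 11.2.

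**Figure D1:**
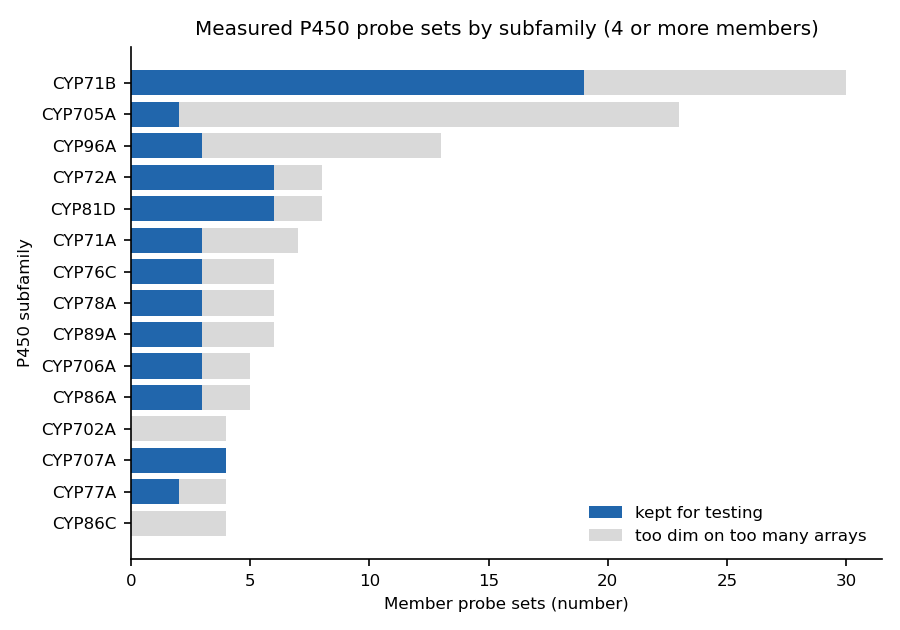
Number of member probe sets (x axis) in each P450 subfamily with 4 or more members (y axis), split into those kept for testing (dark) and those too dim (light). CYP71B kept 19 of 30 and CYP705A 2 of 23.

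Differences were tested with limma on log2 signals and were called at an adjusted p below 0.05 after Benjamini-Hochberg adjustment over 14823 probe sets; standard errors (SE) are those of the model and n was 3 arrays a group. In Col-0 leaves 1 h after wounding, 2 of the 80 kept members were called higher than in unwounded leaves and 6 were called lower. Over all probe sets tested, 3.64% were called higher and 2.20% lower. The members' median log2 change was -0.26, against -0.09 for all probe sets.

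Both members that rose at 1 h belong to CYP81D, a subfamily known for responses to stress and foreign chemicals. CYP81D11 (AT3G28740), which is known to respond to cis-jasmone and xenobiotics, had signals of 210, 134 and 216 at 1 h, against 84.4, 68.2 and 60.2 in unwounded leaves. All 3 wounded arrays lay above all 3 unwounded ones. Its log2 change was 1.38 ± 0.26 (SE; limma adjusted p = 0.00962). CYP81D8 (AT4G37370) had signals of 257, 321 and 350 at 1 h, against 171, 96.7 and 117 in unwounded leaves. The groups did not overlap, and the log2 change was 1.30 ± 0.22 (limma adjusted p = 0.00518).

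These 2 genes parted by 6 h. CYP81D11 stayed high, at 178, 152 and 263 at 6 h, a log2 change of 1.45 ± 0.26 over unwounded leaves (limma adjusted p = 0.00138). CYP81D8 had 101, 107 and 97.0 at 6 h, all below its 3 arrays at 1 h, with a log2 change of -1.60 ± 0.22 between 6 h and 1 h (limma adjusted p = 0.00012). The other 4 kept CYP81D members were not called at 1 h. CYP81D1 was lower at 6 h than at 1 h by a log2 change of -0.46 ± 0.17 (limma adjusted p = 0.0458). That call was lost under 4 of 10 other settings and held in only 3 of the 9 fits that left out a Col-0 array.

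Of the 6 members that fell at 1 h, 4 belong to CYP71B. CYP71B4 (AT3G26280) had 399, 525 and 396 at 1 h, against 853, 625 and 861 in unwounded leaves, with no overlap (log2 change -0.82 ± 0.17, limma adjusted p = 0.0142). CYP71B26 (AT3G26290), its neighbour on chromosome 3, had 524, 517 and 420 at 1 h, against 620, 896 and 949 in unwounded leaves. Its log2 change was -0.74 ± 0.17 (limma adjusted p = 0.0231). The other CYP71B members that fell were CYP71B2 (AT1G13080; -0.70 ± 0.17) and CYP71B28 (AT1G13090; -0.47 ± 0.12), which lie near each other on chromosome 1. CYP81H1 (AT4G37310) fell by 0.68 on the log2 scale and CYP96A1 (AT2G23180), a relative of a wax alkane hydroxylase, fell by 0.96. In all 6 the arrays of the 2 groups did not overlap. How often this held among all probe sets called lower was not computed.

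The count of 8 at 1 h was not stable. With all 18 arrays in the fit it was 0. It was 3 without the array Col-0 control B or Col-0 1 h C, 4 without Col-0 1 h B, and 5 without Col-0 control A or Col-0 1 h A. The share of all probe sets called fell as well, from 5.84% to 0.0270% with all 18 arrays in the fit. In the named fits without 1 array it was 2.54% to 4.94%. The rises of CYP81D11 and CYP81D8 held without any single Col-0 array; among the falls, none did. The split also moved with scaling, to 3 higher and 4 lower after quantile normalization and to 2 and 2 with array medians subtracted. Over all probe sets the shares were 3.82% and 1.57% after quantile normalization, and 4.66% and 0.897% with array medians subtracted. The 3′ to 5′ signal ratio of the actin control, a sign of RNA integrity, was 7.28 to 10.7 at 1 h, against 5.54 to 10.4 in unwounded leaves. The part of RNA quality in these calls was not tested.

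**Figure D2:**
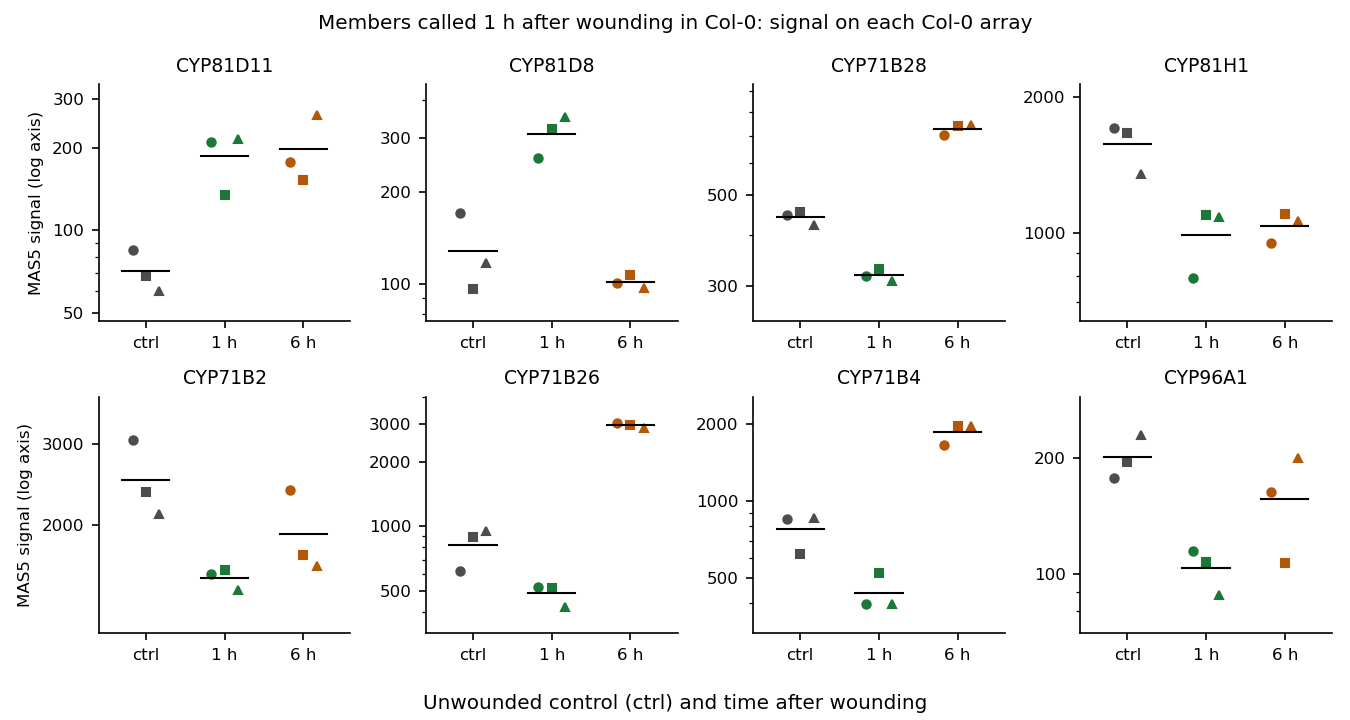
MAS5 signal (log axis) of the 8 members called at 1 h on each of the 9 Col-0 arrays, unwounded (ctrl), 1 h and 6 h after wounding; circles, squares and triangles are arrays A, B and C and bars are means of 3. CYP81D11 and CYP81D8 were higher at 1 h, and CYP71B28, CYP71B26 and CYP71B4 were lower at 1 h and higher at 6 h than in unwounded leaves.

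At 6 h the members changed in both directions. In Col-0 leaves 6 h after wounding, 18 of the 80 kept members were called higher and 12 lower than in unwounded leaves. The background over all probe sets was 15.4% higher and 13.6% lower. The median log2 change was 0.07 for the members, against 0.04 for all probe sets. A log2 change of at least 1 was reached by 8 of the higher and 8 of the lower members, CYP715A1 with an unresolved size among the lower. With all 18 arrays in the fit 11 were called higher and 8 lower, against 8.97% and 6.89% of all probe sets. With array medians subtracted 15 and 15 were called, against 12.7% and 16.3%. None of the 30 changed sign under any setting tried.

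**Figure D3:**
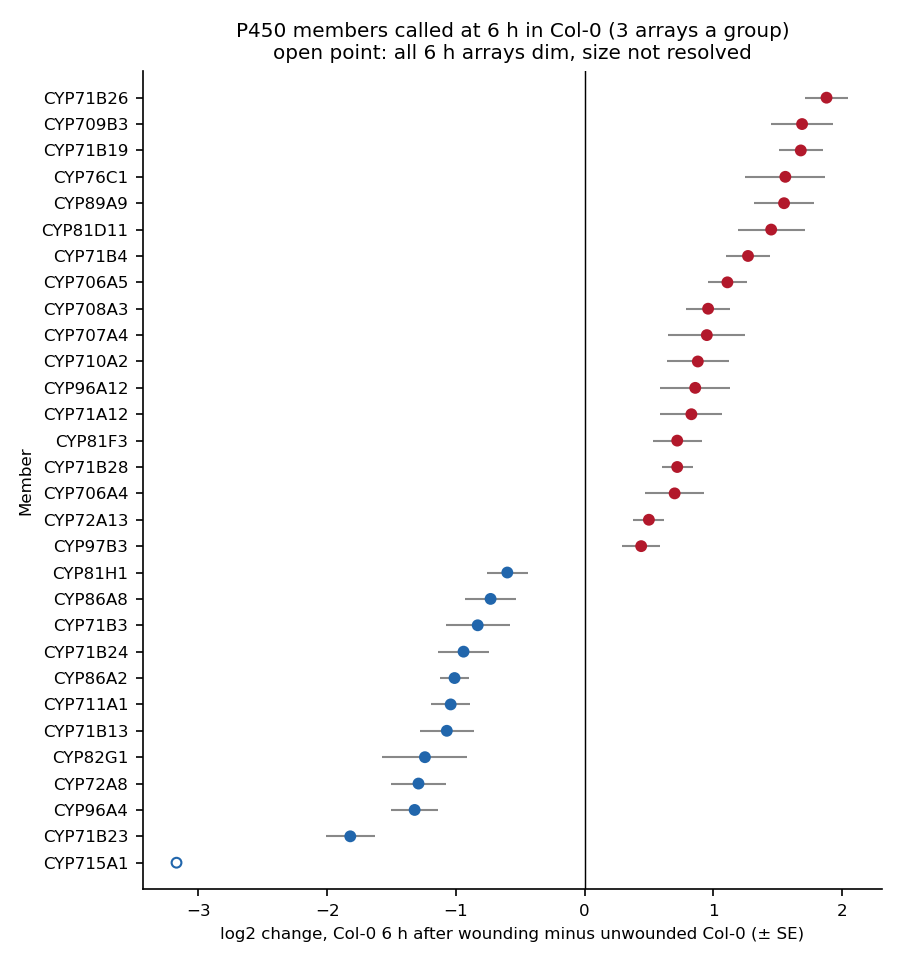
Log2 change (x axis, ± SE) in Col-0 at 6 h after wounding minus unwounded Col-0 for each of the 30 called members (y axis), 3 arrays a group; filled points are measured changes. They run between -1.82 for CYP71B23 and 1.88 for CYP71B26, with 18 members to the right of 0 and 12 to the left, among them CYP715A1, drawn as an open point without an error bar because all its 6 h arrays were dim and its size was not resolved.

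The CYP71B subfamily divided evenly at 6 h, with 4 of its 19 kept members higher, 4 lower and 11 not called. CYP71B26 had the largest log2 change of the 18 members that rose, with signals of 3050, 2974 and 2874 at 6 h, against 620, 896 and 949 in unwounded leaves. The lowest 6 h array was above the highest unwounded array, and the log2 change was 1.88 ± 0.17 (limma adjusted p = 9.91e-06). CYP71B4 had 1664, 1977 and 1977 at 6 h, against 853, 625 and 861 in unwounded leaves (log2 change 1.27 ± 0.17, limma adjusted p = 0.000156). CYP71B28 rose by 0.72 ± 0.12. These 3 genes were lower at 1 h and higher at 6 h than in unwounded leaves, and they were the only 3 members called in opposite directions at the 2 times. The probe set of CYP71B19 (AT3G26170), whose name marks probes shared between genes, rose by 1.68 ± 0.17, and signal from near-identical copies cannot be told apart there.

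The CYP71B members that fell lie close to those that rose. CYP71B23 (AT3G26210) had 245, 288 and 199 at 6 h, against 840, 740 and 998 in unwounded leaves. Its arrays did not overlap, and the log2 change was -1.82 ± 0.19 (limma adjusted p = 3e-05). CYP71B3 (AT3G26220) and CYP71B24 (AT3G26230) fell by 0.83 and 0.94, and CYP71B13 (AT5G25140) on chromosome 5 fell by 1.07 on the log2 scale. The CYP71B3 call was lost without Col-0 control B or C or Col-0 6 h A or C. In the gene order of RefSeq's TAIR10.1 annotation, used here only for neighbours, 15 CYP71B members stand near each other on chromosome 3 in a run of 8 and a run of 7. Members with at most 2 other genes between them were counted as a run. Of the 10 kept in that stretch, 3 were higher, 3 lower and 4 not called at 6 h. CYP71B19 rose while CYP71B23, CYP71B3 and CYP71B24 of the same run fell, and in the next run CYP71B4 and CYP71B26 rose while CYP71B34, CYP71B35 and CYP71B36 were not called.

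**Figure D4:**
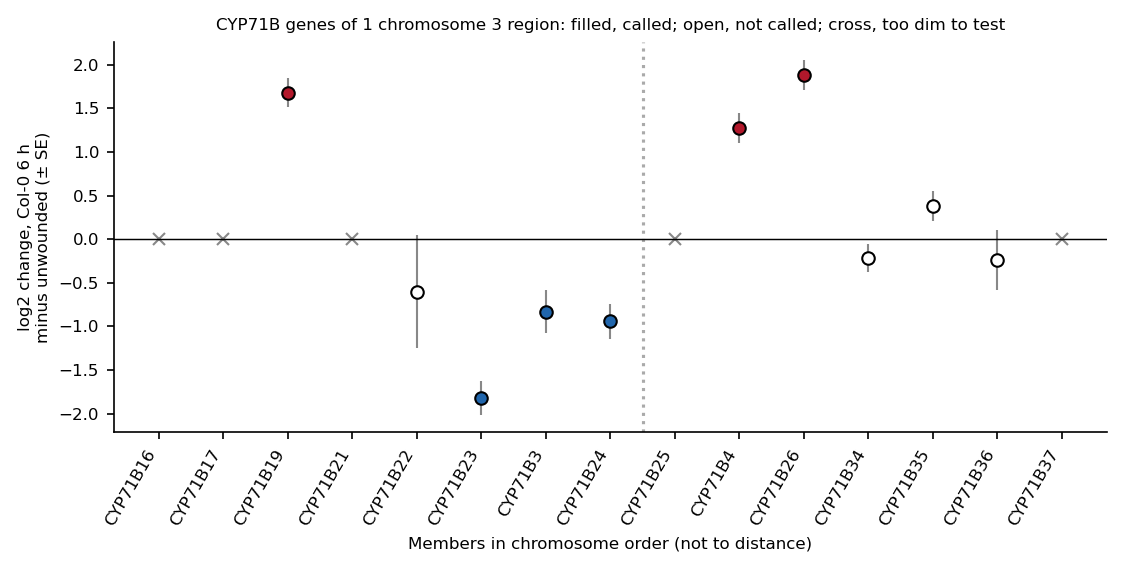
Log2 change (y axis, ± SE) in Col-0 at 6 h minus unwounded Col-0 for 15 CYP71B members in the order in which they lie on chromosome 3 (x axis, not to distance), 3 arrays a group. The dotted line parts the run of 8 from the run of 7; filled points were called, open points were not, and crosses at 0 mark members too dim to test. CYP71B19, CYP71B4 and CYP71B26 were higher and CYP71B23, CYP71B3 and CYP71B24 lower.

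Other neighbouring genes moved differently from one another as well. In the run of 8 CYP72A members on chromosome 3, 6 were kept. CYP72A13 (AT3G14660) rose at 6 h by 0.50 ± 0.12, and CYP72A8 (AT3G14620) had 624, 452 and 528 at 6 h, against 1172, 998 and 1866 in unwounded leaves (log2 change -1.29 ± 0.21, limma adjusted p = 0.000634). In the run of 3 CYP706A members on chromosome 4 the 2 kept members both rose. CYP706A5 (AT4G12310), with shared probes, rose by 1.11 ± 0.15 and CYP706A4 (AT4G12300) by 0.70 ± 0.23. The CYP706A4 call was lost under 5 of 10 other settings, among them both other scalings. In the run of 7 CYP81 genes on chromosome 4, CYP81F3 was higher and CYP81H1 lower at 6 h, the CYP81H1 call being lost without Col-0 control B or Col-0 6 h A.

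Of the 55 members on 14 role lists for genes of known function, 29 were kept. Among the abscisic acid 8′-hydroxylases of the CYP707A subfamily, which inactivate that hormone, 1 of 4 was called at 6 h. CYP707A4 (AT3G19270) had 113, 186 and 215 at 6 h, against 62.9, 99.6 and 99.6 in unwounded leaves, a log2 change of 0.95 ± 0.30 (limma adjusted p = 0.0345). The groups did not overlap, but the call was lost under 3 of 9 other settings and without Col-0 control A or B or Col-0 6 h B or C. CYP707A2 was higher at 6 h than at 1 h by 1.41 ± 0.44 (limma adjusted p = 0.0221) and was not called against unwounded leaves. It lost that call after quantile normalization and without Col-0 1 h A or B or Col-0 6 h A or C. CYP707A1 and CYP707A3 were not called, at log2 changes of 0.27 ± 0.28 and -0.63 ± 0.28 at 6 h.

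Strigolactone synthesis had 1 measured step, CYP711A1 (AT2G26170), also named MAX1. It had signals of 250, 221 and 260 at 6 h, against 511, 441 and 552 in unwounded leaves. The groups were well apart, and the log2 change was -1.04 ± 0.15 (limma adjusted p = 0.000306). At 1 h it had 473, 614 and 532, a log2 change of 0.10 ± 0.15 that was not called. The cytokinin hydroxylases CYP735A1 and CYP735A2 were too dim to test.

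In the brassinosteroid list, 6 of 8 genes were kept, of which CYP90D1 (AT3G13730), a C-23 hydroxylase, is a member; the other kept genes are not members. CYP90D1 had 124, 143 and 131 at 1 h and 47.0, 45.0 and 54.0 at 6 h, against 87.0, 80.6 and 67.3 in unwounded leaves. All 3 arrays at 6 h were below the 40th percentile of their array, so the fall between 6 h and 1 h was at least 1.65-fold (limma adjusted p = 0.00057). It was not called against unwounded leaves at 1 h or 6 h (limma adjusted p = 0.0978 and 0.0579). Over the whole list 3 were higher and none lower at 6 h against unwounded leaves, and 4 were higher and 1 lower at 6 h against 1 h. The synthesis genes CYP90A1 (1.11 ± 0.16), CYP85A2 (0.88 ± 0.24) and CYP90B1 (0.60 ± 0.19) were the 3 that rose over unwounded leaves.

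The gibberellin list had 4 kept genes of 6, and 1 rose at 6 h over unwounded leaves. That gene was CYP701A3, the ent-kaurene oxidase, at 0.91 ± 0.16, which is not a member. The member CYP88A3 (AT1G05160), an ent-kaurenoic acid oxidase of the same route, had 171, 183 and 203 at 6 h, against 114, 152 and 114 at 1 h, and rose by 0.56 ± 0.19 between these times (limma adjusted p = 0.0284). That call was lost under both other scalings, and without Col-0 1 h A or C or Col-0 6 h B or C. CYP72A9, which inactivates gibberellins, was kept on 3 arrays only and was not called.

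Genes that oxidise fatty acids for the cuticle were lower or not called at 6 h. Of the 10 members on that list 4 were kept, of which 2 fell and none rose. CYP86A2 (AT4G00360), a fatty acid hydroxylase of cutin synthesis also named ATT1, had 3121, 2826 and 3184 at 6 h, against 5500, 6203 and 6720 in unwounded leaves. No array overlapped, and the log2 change was -1.01 ± 0.11 (limma adjusted p = 5.27e-05). CYP86A8 (AT2G45970), known as LCR, had 159, 133 and 223 at 6 h, against 308, 295 and 237 (log2 change -0.73 ± 0.20, limma adjusted p = 0.0153). CYP86A4 and CYP77A4 had log2 changes of -0.60 ± 0.38 and -0.09 ± 0.25 that were not called. At 1 h none of the 4 was called, and CYP86A2 stood at 0.01 ± 0.11. The call of CYP86A8 was lost without Col-0 control B or Col-0 6 h A or B. The summed signal of the epidermal markers ATML1 and PDF1 was 498 to 829 at 6 h, against 615 to 824 in unwounded leaves. ATML1 alone had 454 to 700, against 608 to 731, and PDF1 43.9 to 129, against 6.15 to 93.1. Their part in these falls was not tested, and fewer epidermal cells and less RNA per cell cannot be told apart.

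The 3 kept members of volatile and terpenoid synthesis went separate ways. CYP82G1 (AT3G25180), which makes the homoterpene volatiles released after herbivory, had 1214, 943 and 1312 at 1 h, against 379, 661 and 742 in unwounded leaves. Those groups did not overlap, but the log2 change of 1.00 ± 0.33 was not called (limma adjusted p = 0.103). At 6 h it had 415, 221 and 153, a log2 change of -1.24 ± 0.33 relative to unwounded leaves (limma adjusted p = 0.014) in which the array Col-0 6 h A overlapped the unwounded group. That call was lost without Col-0 control B or Col-0 6 h B or C. The fall between 6 h and 1 h was -2.25 ± 0.33 (limma adjusted p = 0.000181).

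CYP76C1 (AT2G45560), a linalool oxidase, moved the other way. It had 364, 253 and 346 at 6 h, against 119, 99.1 and 105 in unwounded leaves and 41.1, 39.0 and 91.1 at 1 h. The 6 h arrays were above all others of Col-0, with log2 changes of 1.56 ± 0.31 over unwounded leaves and 2.59 ± 0.31 over 1 h (limma adjusted p = 0.0024 and 3.43e-05). CYP76C3 was not called. The hydroperoxide lyase CYP74B2, on the same list but not a member, fell by 1.41 on the log2 scale at 6 h.

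Pigment genes were led by CYP89A9 (AT3G03470), which acts on chlorophyll breakdown products. It had 1620, 1707 and 1319 at 6 h, against 369, 649 and 611 in unwounded leaves. Its arrays did not overlap, and the log2 change was 1.55 ± 0.23 (limma adjusted p = 0.000339). Of the carotenoid hydroxylases, CYP97B3 (AT4G15110) rose by 0.44 ± 0.15 at 6 h (limma adjusted p = 0.0481), a call that was lost under 6 of 10 other settings, and CYP97A3 had a log2 change of -0.28 ± 0.16 that was not called. Both kept sterol genes were higher at 6 h than at 1 h. The sterol C-22 desaturase CYP710A2 (AT2G34490) had 897, 888 and 941 at 6 h, against 358, 432 and 515 at 1 h (log2 change 1.08 ± 0.24), and the sterol demethylase CYP51G1 changed by 0.42 ± 0.14. Against unwounded leaves CYP710A2 rose by 0.88 ± 0.24, a call that was lost without Col-0 control B. The CYP51G1 call was lost without Col-0 1 h B or C or any single Col-0 6 h array.

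In the camalexin and indole list 1 of 3 kept members was called at 6 h. CYP71A12 (AT2G30750), which converts indole-3-acetaldoxime, had 126, 135 and 125, against 78.7, 56.9 and 84.4 in unwounded leaves, a log2 change of 0.83 ± 0.24 (limma adjusted p = 0.0226) that lost its call without Col-0 control B or any single Col-0 6 h array. CYP71A13, its close relative, had -0.71 ± 0.25 (limma adjusted p = 0.0538). The camalexin gene CYP71B15 (PAD3), not a member, fell by 1.90 on the log2 scale at 6 h. Among members that modify indole glucosinolates, CYP81F3 (AT4G37400) had 295, 309 and 289 at 6 h, against 162, 162 and 222 in unwounded leaves (0.72 ± 0.19, limma adjusted p = 0.0122), and CYP81F1 was not called.

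The lignin gene CYP98A3 (AT2G40890), a hydroxylase of p-coumaroyl esters, was not called in any Col-0 contrast, with log2 changes of 0.01 ± 0.14 at 1 h and -0.15 ± 0.14 at 6 h. Of 3 kept CYP78A genes, which promote organ growth, none was called against unwounded leaves, and CYP78A9 was higher at 6 h than at 1 h by 0.94 ± 0.18 (limma adjusted p = 0.00132).

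Members outside the role lists held some of the larger changes. CYP709B3 (AT4G27710), tied to salt tolerance, had 1236, 1182 and 969 at 6 h, against 510, 269 and 308 in unwounded leaves (log2 change 1.69 ± 0.24, limma adjusted p = 0.000228). The groups did not overlap. CYP708A3 (AT1G78490), a relative of the thalianol hydroxylase, had 1280, 1084 and 1035 at 6 h, against 539, 520 and 698 in unwounded leaves (0.96 ± 0.17). CYP96A4 (AT5G52320) had 902, 797 and 938 at 6 h, against 1882, 1927 and 2912 in unwounded leaves, with no overlap (-1.32 ± 0.18, limma adjusted p = 0.00017). Another member of its subfamily, CYP96A12 (AT4G39510), rose by 0.86 ± 0.27 at 6 h (limma adjusted p = 0.0329), and it lost that call without Col-0 control C or Col-0 6 h B or C.

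CYP715A1 (AT5G52400), known from flower maturation, was too dim at 6 h to be measured. Its signals were 67.5, 85.9 and 88.2 in unwounded leaves, 246, 154 and 202 at 1 h and 8.80, 19.9 and 4.03 at 6 h. No array of 1 time overlapped another. The 6 h arrays all lay below the 40th percentile, so the fall between 6 h and 1 h was at least 2.45-fold (limma adjusted p = 3.13e-05). Against unwounded leaves the call stood (limma adjusted p = 0.00076) but its size was not resolved, since the unwounded signals were near that percentile. The fitted rise at 1 h over unwounded leaves, 1.30 ± 0.52, was not called.

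Between 6 h and 1 h in Col-0, 27 of the 80 kept members were called higher and 14 lower. The background was 25.4% higher and 17.3% lower. The median log2 change of all probe sets was 0.13 in this contrast, and 0.29 for the members. The split depended on scaling: it was 20 higher and 18 lower after quantile normalization, and 19 and 20 with array medians subtracted. The shares of all probe sets moved as well, to 21.1% higher and 19.4% lower after quantile normalization. With array medians subtracted they were 16.8% and 24.1%. No called member changed sign. The actin 3′ to 5′ ratio was 4.12 to 6.97 at 6 h, against 7.28 to 10.7 at 1 h, ranges that do not overlap. The summed signal of the guard cell markers KAT1 and MYB60 was 886 to 948 at 6 h, against 362 to 408 at 1 h. The difference lay in KAT1, at 722 to 775 at 6 h, against 184 to 242 at 1 h, while MYB60 had 160 to 173, against 148 to 178. The part of RNA quality and of guard cell RNA in these counts was not tested.

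Over the Col-0 time course 47 of the 80 kept members were called in at least 1 contrast and 33 in none. The most common pattern, in 14 members, was higher at 6 h than at both earlier states with no call at 1 h. The mirror pattern, lower at 6 h than at both, was found in 9. A further 10 were higher and 4 lower at 6 h against 1 h alone. How often all probe sets showed these patterns, or a call in at least 1 contrast, was not computed. These counts therefore describe the members and do not set them apart from the array. In the single contrasts 8, 30 and 41 of the 80 members were called at 1 h, at 6 h and at 6 h against 1 h. Of all probe sets, 5.84%, 29.0% and 42.7% were called in the same order. CYP705A19 (AT3G20100), of the otherwise dim CYP705A subfamily, had 158, 116 and 156 at 6 h, against 174, 586 and 432 at 1 h (log2 change -1.32 ± 0.37, limma adjusted p = 0.0122), a call that was lost without Col-0 1 h B or C. Among the 33 without a call were CYP706A2, CYP72A15 and CYP94D2, all bright on every array.

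P450 enzymes depend on redox partners, and 1 of the 2 P450 reductases moved at both times. ATR2 (AT4G30210) had 3046, 3526 and 3296 at 1 h and 977, 904 and 936 at 6 h, against 1871, 2253 and 2420 in unwounded leaves. It rose by 0.60 ± 0.13 at 1 h (limma adjusted p = 0.0179) and had a log2 change of -1.21 at 6 h (limma adjusted p = 3.29e-05), with no overlap at either time. ATR1 (AT4G24520) had 544, 554 and 523 at 6 h, against 523, 489 and 441 in unwounded leaves, and was not called. Of the cytochrome b5 genes, CB5-B (AT2G32720) was lower at 6 h, with a log2 change of -1.13 ± 0.22 (limma adjusted p = 0.00256), and CB5-A, CB5-C, CB5-D, CB5-E and the b5 reductase CBR1 were not called in Col-0. In all, 2 of the 8 redox partners were lower and none higher at 6 h.

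The effect of StZFP2 was read as the mean of the 3 groups labelled OE minus the mean of the 3 Col-0 groups. In this contrast 5 of the 80 kept members were called higher and 4 lower in OE. Over all probe sets 3.01% were higher and 1.83% lower. The median log2 change was 0.06 for the members and 0.05 for all probe sets. No called member reached a log2 change of 1, and in none did the arrays of both genotypes stay apart within every treatment label. Without a term for treatment only 1 of the 80 (1.25%), CYP98A3, was called, against 1.14% of all probe sets. With quantile normalization 3 were higher and 4 lower, against 1.84% and 1.83% of all probe sets. With array medians subtracted 2 and 4 were called, against 1.44% and 2.68%. Without the 3 OE arrays lettered C, an alternative chosen after the data were seen, 12 were higher and 9 lower, against 9.40% and 6.27% of all probe sets. The count also moved with single arrays. It was 4 without Col-0 6 h A or C, OE control A or OE 1 h A or B, and 5 without Col-0 control A or B, Col-0 1 h B or C, Col-0 6 h B or OE control B. Without OE 1 h C it was 14. The share of all probe sets called was 2.27% to 3.68% in the named fits with 4 or 5 calls. Without OE 1 h C it was 9.71%. The actin 3′ to 5′ ratio was 4.45 to 6.74 on the arrays labelled OE, against 4.12 to 10.7 on the Col-0 arrays. Among unwounded leaves it was 4.60 to 5.28 in OE, against 5.54 to 10.4 in Col-0, and at 1 h it was 4.97 to 6.13, against 7.28 to 10.7. The guard cell sum was 796 to 1070 in unwounded OE, against 393 to 601 in unwounded Col-0, and MYB60 alone had 215 to 246, against 131 to 198. The part of both in the genotype calls was not tested.

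The lignin gene CYP98A3 was the most steadily offset member. Its signals lay between 481 and 633 on the 9 arrays labelled OE (median 578) and between 618 and 871 on the 9 Col-0 arrays (median 756). Only the array labelled OE 6 h B, at 633, was above the lowest Col-0 array. The log2 change was -0.43 ± 0.08 (limma adjusted p = 0.00673), and it was called under all 10 other settings and without any single array. CYP81D8, which rose in Col-0 at 1 h, had signals of 52.3 to 211 on the arrays labelled OE (median 89.5), against 96.7 to 350 on the Col-0 arrays (median 117). The ranges overlapped widely, and the log2 change was -0.82 ± 0.17 (limma adjusted p = 0.0155). The arrays labelled OE 1 h had 52.3, 64.5 and 93.0, all below the 3 Col-0 arrays at 1 h.

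The cutin gene CYP86A2 was lower on the arrays labelled OE, at 2368 to 4540 (median 3433), against 2826 to 6720 on the Col-0 arrays (median 5862), a log2 change of -0.55 ± 0.11 (limma adjusted p = 0.0103). CYP71B13 was lower by a log2 change of -0.64 ± 0.17 (limma adjusted p = 0.0453), a call that was lost under 4 of 10 other settings and held in 4 of the 18 fits that left out an array. The members called higher in OE were CYP71B26, CYP89A9, CYP71B4, CYP81F3 and CYP706A5. Of the 18 fits that left out an array, the call held in 18 for CYP71B26, 8 for CYP89A9, 3 for CYP71B4, 11 for CYP81F3 and 5 for CYP706A5. CYP71B26 had signals of 988 to 3353 on the arrays labelled OE (median 2253), against 420 to 3050 on the Col-0 arrays (median 896). Its log2 change was 0.88 ± 0.18 (limma adjusted p = 0.014), and the ranges of both genotypes overlapped. Of the redox partners, CB5-C was higher in OE by 0.41 ± 0.11.

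**Figure D5:**
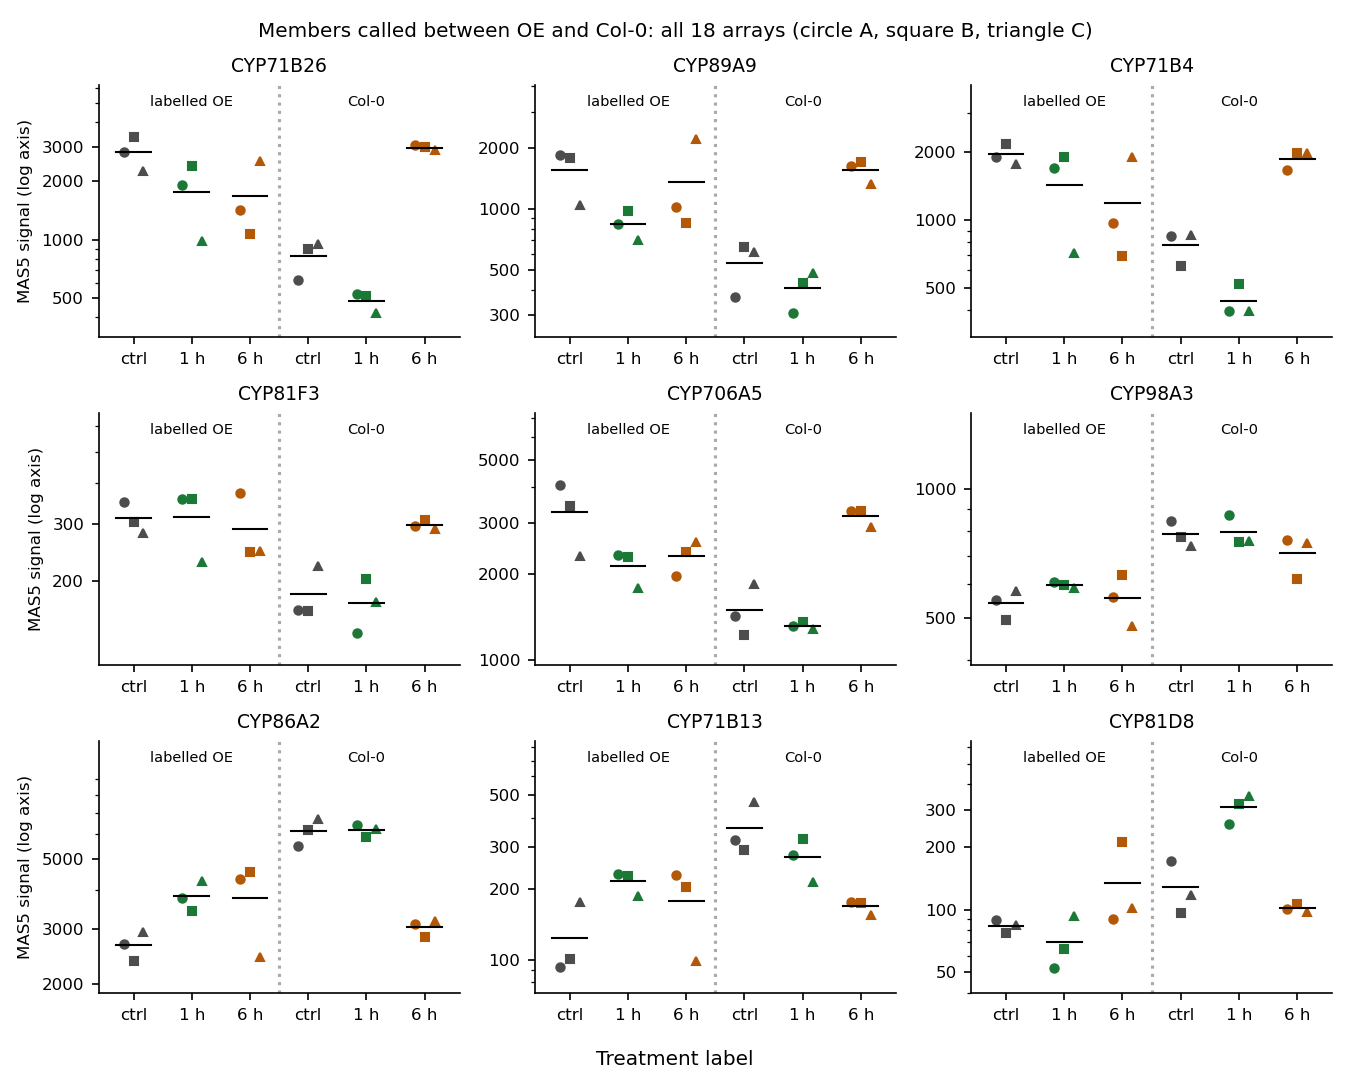
MAS5 signal (log axis) on all 18 arrays for the 9 members called between OE and Col-0, by treatment label (x axis), arrays labelled OE left and Col-0 right; circles, squares and triangles are arrays A, B and C and bars are means of 3. The mean of CYP98A3 lies lower under each OE label, while in CYP71B26 the arrays labelled OE 6 h A and B, at 1417 and 1063, lie below those labelled OE control, at 2253 to 3353.

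Whether OE changed the response to wounding was tested as an interaction, the change under the OE labels minus the change in Col-0. At 1 h 0 of the 80 kept members were called, as were 0.00% of all probe sets; 14 members and 1497 probe sets in all had an unadjusted p below 0.05. With array weights 23 were called, without the OE arrays lettered C 19, and without OE control C 3. The shares of all probe sets called under these settings were 17.9%, 15.7% and 2.81%, against 28.8%, 23.8% and 3.75% of the members. At 6 h 24 members were called, 30.0% of those kept, against 23.3% of all probe sets. The difference was positive for 11 members and negative for 13, which are 13.8% and 16.2% of those kept. Over all probe sets 10.2% were called with a positive and 13.2% with a negative difference.

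CYP71B26 had signals of 1417, 1063 and 2535 on the arrays labelled OE 6 h, against 2817, 3353 and 2253 on those labelled OE control. The array labelled OE 6 h C stood with the controls, and the difference from the Col-0 change in log2 units was -2.70 ± 0.45 (limma adjusted p = 0.00924). CYP86A2 had 4309, 4540 and 2438 on the arrays labelled OE 6 h, against 2696, 2368 and 2934 on those labelled OE control, again with array C apart (1.46 ± 0.26, limma adjusted p = 0.00924). For CYP82G1 the arrays labelled OE 6 h had 1102, 1360 and 217, against 124, 186 and 246 labelled OE control (3.19 ± 1.08, limma adjusted p = 0.0445). This call was lost under 3 of 9 other settings and held in 7 of the 18 fits that left out an array. The labels of OE control A and B and of OE 6 h A and B are among those that the array correlations go against. Without the OE arrays lettered C 41 members were called, 51.2% of those kept, against 46.6% of all probe sets.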

How the data were processed

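The 18 ATH1 arrays were deposited by the authors as MAS5 signal intensity on a linear scale, per the submitters' processing notes; on each array the trimmed mean with 2% removed at each end came to the target of 500. Another 90 columns of per-array values in the deposited workbook, whose names matched no sample, were not used, and no detection calls were used. The 64 control probe sets were left out of the tests. Signals were log2-transformed, and probe sets at or above the 40th percentile of their array on at least 3 arrays were kept (14823). limma 3.58.1 in R 4.3.3 was fitted with a variance trend and Benjamini-Hochberg adjustment over all kept probe sets. The Col-0 contrasts used the 9 Col-0 arrays (6 residual degrees of freedom) and the OE contrasts all 18 (12), with groups as labelled. A fold is given as "at least" where all arrays of a group lay below the 40th percentile, and it is computed against that percentile.

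The members and the 14 role lists were chosen with earlier results of these data known. The members named by size were up to 12 in each direction with a call, a log2 change of at least 1 and probes matching 1 gene. Except in the interactions, the arrays of the 2 groups also had to stay apart, for OE against Col-0 within each treatment label. For members named by size, a lack of overlap is therefore part of the choice and adds no support. Members of the role lists and of the families described were named beside them. All 188 member loci were found in RefSeq's TAIR10.1 annotation, which gave 11 of them another name than the array's. Alternatives covered the scaling, an offset of 16, the filter, the variance trend, array weights, the replicate letter, the arrays in the fit and each array left out. Leaving out the OE arrays lettered C was chosen after seeing the data. The number of arrays limits the precision.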

Additional observations from a re-analysis of the deposited data

Results flagged for a closer look

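By a limma interaction test at an adjusted p below 0.05, 24 of the 80 kept members were called at 6 h. In these the change under the OE labels differed from the change in Col-0. They made up 30.0% of the kept members, against 23.3% of all probe sets. The 19 given here matched 1 gene and had a difference of at least 1 in size. The differences below are OE minus Col-0 on the log2 scale, and they rest on OE treatment labels that the array correlations partly go against. The Col-0 change is subtracted in each difference, so a fall in Col-0 enters as a positive value and a rise as a negative one. The signs below are therefore partly built in. Among members lower at 6 h in Col-0, the difference was 3.19 for CYP82G1, 2.61 for CYP71B23 and 1.85 for CYP96A4. For CYP715A1 the fitted value was 6.05, but all its Col-0 6 h arrays were below the 40th percentile, so its size was not resolved; it lay between 3.79 and 6.90 over the settings and arrays left out. It was 1.56 for both CYP71B13 and CYP711A1, 1.46 for CYP86A2, 1.28 for CYP86A8 and 1.05 for CYP72A8. For CYP90D1, which was lower at 6 h than at 1 h in Col-0, the fitted value was 1.25. All its Col-0 6 h arrays were below the 40th percentile, so its size was not resolved. The calls of CYP90D1 and CYP72A8 were lost without the filter and with the replicate block. Each held in 9 of the 18 fits that left out an array. Among members higher at 6 h in Col-0, the difference was -2.70 for CYP71B26, -2.69 for CYP76C1, -2.35 for CYP709B3 and -2.12 for CYP71B4. It was -1.83 for both CYP81D11 and CYP89A9, -1.62 for CYP96A12, -1.54 for CYP708A3 and -1.12 for CYP71B28.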

How the results depend on the processing

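No called member changed sign under any setting tried, or without any single array. Of the calls in Col-0, 19 of 30 at 6 h against unwounded leaves and 28 of 41 at 6 h against 1 h held under every setting; 20 and 27 held without any single array. At 1 h none of 8 held under every setting. The count was 4 with array medians subtracted, 5 without a variance trend and 0 with all 18 arrays in the fit. It was 3 to 10 with an array left out. The shares of all probe sets called under these settings were 5.56%, 4.07%, 0.0270% and 2.54% to 8.07%. At 6 h against unwounded leaves the count was 19 with all 18 arrays, and 22 to 35 with an array left out. Against 1 h it was 33 to 44 with an array left out. Of all probe sets, 15.9%, 21.6% to 29.4% and 35.1% to 45.2% were called. Between OE and Col-0, where the count was 9, it was 22 with array weights, 5 with the replicate block and 1 without a treatment term. It was 21 without the OE arrays lettered C and 4 to 14 with an array left out. The shares of all probe sets called were 21.0%, 3.37%, 1.14%, 15.7% and 2.27% to 9.71%. The 1 h interaction gave 23 calls with array weights, 19 without the OE arrays lettered C and 0 to 3 with an array left out. Of all probe sets, 17.9%, 15.7% and 0.00% to 2.81% were called. The 6 h interaction gave 47 with array weights, 41 without the OE arrays lettered C and 14 to 33 with an array left out. Of all probe sets, 52.3%, 46.6% and 8.97% to 38.3% were called. Without OE control B or OE 6 h B the 6 h interaction gave 15, against 11.4% and 8.97% of all probe sets. Deviations of same-lettered arrays from their group means had r of -0.076 to 0.099 over 9 Col-0 pairs. Over 18 Col-0 pairs of different letters r was -0.184 to 0.135. In OE r was -0.605 to 0.055 over 9 same-lettered pairs, against -0.416 to 0.509 over 18 others. These values do not settle whether the letters pair samples, and the OE group means rest on labels that the array correlations partly go against. With the replicate block the counts were 6, 30, 41, 0 and 20 for the 1 h, 6 h, 6 h against 1 h, 1 h interaction and 6 h interaction contrasts. The shares of all probe sets in the same order were 5.48%, 28.2%, 42.3%, 0.00% and 18.4%. The cause of these moves was not tested. Signals near the 40th percentile limit the members that were dim at one time.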
